A study of Mus musculus with 91 samples.

Results

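The mature miRNAs mmu-miR-192-5p, mmu-miR-194-5p, mmu-miR-122-5p and mmu-miR-375-3p, all known from organs built from endoderm, were followed through mouse embryos that lacked DNA methyltransferases. They were chosen by name, as signs of visceral or definitive endoderm in the dissected tissues, and are 4 of the 1504 mature miRNAs in the count table. Small RNA was measured by CAS-seq, a small RNA sequencing method for low input in which Cas9 cuts adapter products away. The extraembryonic ectoderm (Exe) and the epiblast (Epi) were dissected at embryonic day 6.5 (E6.5) and 7.5 (E7.5), from control embryos and from embryos without *Dnmt1* (*Dnmt1*-KO), without *Dnmt3a* and *Dnmt3b* (*Dnmt3a/3b*-DKO) or without all of these genes (*Dnmt*-null), which the labels write as Con, KO, DKO and TKO. The study asked what loss of DNA methylation changes around gastrulation.

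There were 4 libraries for each tissue, stage and genotype, except 3 for E7.5 Epi control and 3 for E7.5 Epi *Dnmt*-null. The strain was given as C57BL/6 male X F1 female for all embryos. According to the methods, genes were inactivated by injecting a base editor into zygotes from B6D2F1 females mated with *Oct4-EGFP* males, so each mutant embryo was edited separately. Semi-cloned (SC) embryos, made by injecting haploid cells into oocytes, had 3 libraries each: at E6.5 WT, DKO, *Dnmt*-null and both together as DKO;*Dnmt*-null, and at E7.5 a control made from DKO-AG-haESCs and Mir-6KO;*Dnmt*-null. In SC embryos, DKO stands for deletion of the *H19* and IG differentially methylated regions, not for *Dnmt3a/3b*, and every SC embryo of a DKO line carries it, the E7.5 controls included. The labels call all of these samples semi-cloned embryos, while the study describes the E6.5 samples of WT, DKO and *Dnmt*-null as epiblast. Androgenetic haploid embryonic stem cells (AG-haESCs) of strain C57BL/6 came as WT with 3 libraries, O48 with 3 libraries, the line in which miRNA genes were deleted, and Mir-6KO with 2 libraries, from which 6 miRNA genes (*let-7b* and 5 of the *Dlk1-Dio3* locus) had been deleted. The study describes Mir-6KO cells as DKO-AG-haESCs with these deletions, so O48 is probably a DKO line, and O48 against WT then compares DKO with WT, but neither the labels nor the methods state this of O48. Gene-modified lines were grown from single cells, so each stands for 1 clone. Whether a library held 1 embryo or several, and whether visceral endoderm was removed from the dissected tissues, was not given in the sources used here. The p-values therefore measure the spread between libraries, which may be in part technical.

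The visceral endoderm is the epithelium that wraps both the epiblast and the extraembryonic ectoderm before and during gastrulation, and the definitive endoderm leaves the epiblast through the primitive streak and later gives rise to gut, liver and pancreas. miR-192 and miR-194 are made from shared transcripts and are abundant in gut, liver and kidney. miR-122 is the dominant miRNA of hepatocytes, and miR-375 is abundant in pancreatic islets, where it limits insulin secretion, and in other endocrine and epithelial cells. None of the members is found in endoderm alone.

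The mature sequences show how the miR-192/194 family is built, with the seed (bases 2 to 8, which pair with targets) in capitals and all sequences and positions taken from RefSeq (GRCm38.p6).
mmu-miR-192-5p: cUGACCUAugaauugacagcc
mmu-miR-215-5p: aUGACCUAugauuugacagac
mmu-miR-194-5p: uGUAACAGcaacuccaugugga
miR-192-5p (*Mir192*, chr19:6264857-6264877, + strand) and its relative miR-215-5p (*Mir215*, chr1:185313610-185313630, + strand) share the seed UGACCUA and 18 of 21 positions. miR-194-5p has another seed, which no other mature miRNA in the RefSeq table carries, and is read from 2 genes with the same mature sequence, *Mir194-1* (chr1:185313325-185313346, + strand) and *Mir194-2* (chr19:6264658-6264679, + strand). The counts of miR-194-5p are therefore the sum of both genes and cannot be divided between them. *Mir194-2* and *Mir192* lie 115 bases apart on chromosome 19 and overlap no other gene in GENCODE vM21. *Mir194-1* and *Mir215* lie 195 bases apart on chromosome 1, inside *Iars2* on its opposite strand and outside its exons, and within the antisense gene *2010103J01Rik*, where *Mir215* falls in an exon and *Mir194-1* does not. miR-375-3p is cut from the hairpin of *Mir375*, which overlaps no other gene, and the hairpin is shown with the opposite strand, miR-375-5p, in capitals.
*Mir375* hairpin (chr1:74900658-74900721, - strand): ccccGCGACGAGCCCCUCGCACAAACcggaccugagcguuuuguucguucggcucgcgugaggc
Of the 4 members, 2 were matched to a mature entry of RefSeq. miR-122-5p is given by name. Its counts were identical to those of mmu-miR-122b-3p in all 88 libraries of the main table, so these miRNAs cannot be told apart here.

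Values are CPM, the counts scaled to the same total of mature miRNA counts in every library, and a miRNA at 3 counts or fewer in every library of a group was treated as at the limit of detection. Totals ran from 45242 to 600821 counts in the E6.5 Exe and Epi libraries and from 266379 to 2394918 at E7.5, so 3 counts stood for 1.25 to 66.3 CPM, and counting error alone was widest at E6.5. SC libraries held 154061 to 26970637 counts and AG-haESC libraries 3813865 to 16501907. The tissue labels were checked with marker miRNAs. The summed level of the epiblast list (5 miRNAs of miR-302/367) was 130389 to 200354 CPM in E6.5 Epi control and 17588 to 30822 CPM in E6.5 Exe control. The summed level of the extraembryonic ectoderm list (8 miRNAs of the *Sfmbt2* intron) was 7016 to 31356 CPM in E6.5 Epi control and 47364 to 81774 CPM in E6.5 Exe control. Both lists were above the limit of detection in both tissues, so neither dissected tissue was free of miRNAs of the other. Some libraries stood apart. The 2 libraries labelled Mir-6KO had 239331 and 268002 CPM of the epiblast list, against 924 to 3914 CPM in the other AG-haESCs. Replicate 3 of E6.5 SC WT had 21252 CPM of that list, against 195381 and 214514 CPM in its group. Replicate 4 of E6.5 Exe *Dnmt1*-KO had 9498 CPM of the blood list and 4228 CPM of the mesenchyme list, against 163 to 628 CPM and 351 to 696 CPM in the rest of its group, with 5617 CPM of the epiblast list against 26048 to 27858 CPM. Replicate 1 of E6.5 Epi *Dnmt*-null was the shallowest library and was at 0 for 2 of the 4 members. Where leaving them out changed a call, the result is given with and without them. The Mir-6KO group has no other libraries, so its results cannot be given without them.

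miR-192-5p was higher in Exe than in Epi at both stages and in every genotype, by its group means, and miR-194-5p, made from the neighbouring gene, followed the same order at a lower level. Single libraries could depart from this. In E7.5 *Dnmt*-null, Exe replicate 4 was at 1400 CPM of miR-192-5p, against 5336 to 6709 CPM in the rest of its group and 650 to 2104 CPM in Epi. In E6.5 control, miR-192-5p was at 2403, 3697, 2573 and 1490 CPM in Exe and at 1083, 1401, 1285 and 617 CPM in Epi, so the lowest Exe library was above the highest Epi library. At E7.5 control, it was at 3120, 2904, 3970 and 2651 CPM in Exe and at 697, 680 and 360 CPM in Epi, and the tissues were farther apart. The ratio of the means (Exe over Epi) was 2.32 at E6.5 and 5.46 at E7.5. Here as elsewhere in these bulk libraries, more cells of a type and more RNA per cell cannot be told apart.

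**Figure D1:**
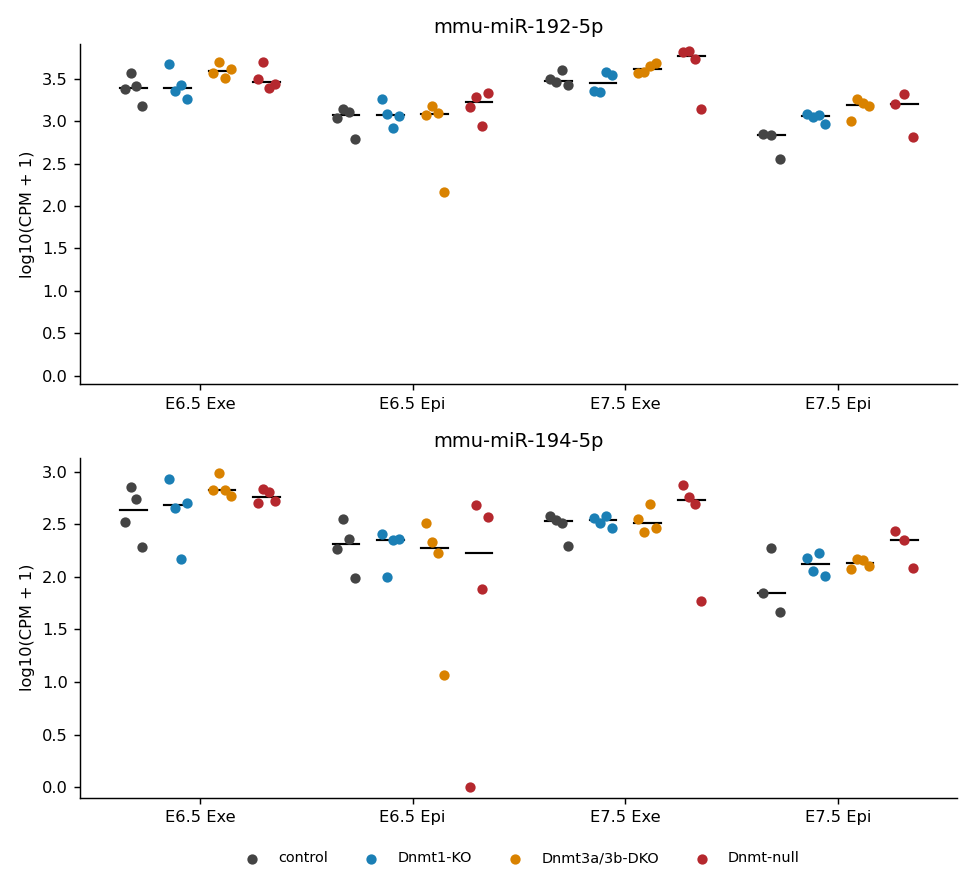
Level of miR-192-5p (top) and miR-194-5p (bottom) as log10(CPM + 1) in each Exe and Epi library by stage and genotype, with points for libraries, colours for genotypes and black lines for group medians. The Exe groups lie above the Epi groups of their stage, and at E7.5 the Epi controls of miR-192-5p, at 697, 680 and 360 CPM, are the lowest Epi group.

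The tissue difference of miR-192-5p was tested in 1 model of all 62 Exe and Epi libraries. At E6.5, the log2 fold change of Exe over Epi was 0.94 ± 0.38 (SE) in control (adjusted p = 0.0636), 0.99 in *Dnmt1*-KO (adjusted p = 0.0435), 1.91 ± 0.39 in *Dnmt3a/3b*-DKO (adjusted p = 9.5e-05) and 1.07 in *Dnmt*-null (adjusted p = 0.0415). The control did not pass with this scaling. It passed with RLE scaling, which moved the median of all miRNAs in this comparison by 0.43 and gave miR-192-5p 1.38 (adjusted p = 0.00504), with DESeq2, which gave 1.38 as well (adjusted p = 0.00167), and with only both groups in the model (adjusted p = 0.0205), the filter on a mean of 10 counts (adjusted p = 0.011) or no such filter (adjusted p = 0.0138). It also passed without Exe replicate 1 or 4 or Epi replicate 2 or 3 (adjusted p = 0.014 to 0.0491). At E7.5, miR-192-5p was higher in Exe by 2.06 ± 0.43 in control (adjusted p = 0.000138), 1.50 in *Dnmt1*-KO (adjusted p = 0.00166), 1.26 in *Dnmt3a/3b*-DKO (adjusted p = 0.0101) and 1.66 in *Dnmt*-null (adjusted p = 0.00325). The E6.5 *Dnmt1*-KO call was lost without Exe replicate 1, Epi replicate 3 or Epi replicate 4 (adjusted p = 0.129, 0.121 and 0.0776), and the E6.5 *Dnmt*-null call without Exe replicate 2, Epi replicate 1 or Epi replicate 3 (adjusted p = 0.232, 0.0716 and 0.087). The *Dnmt*-null call was also lost with no filter on low counts (adjusted p = 0.0638), with only both groups in the model (adjusted p = 0.0614) and without both dissected libraries that stood apart (0.89, adjusted p = 0.158), where the control still did not pass (0.99, adjusted p = 0.0512) and *Dnmt1*-KO did (1.22, adjusted p = 0.0204). At E7.5, the *Dnmt3a/3b*-DKO call was lost without Exe replicate 3 or Epi replicate 4 (adjusted p = 0.0563 and 0.0602), and the *Dnmt1*-KO call with no filter on low counts (0.97, adjusted p = 0.0561).

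miR-194-5p was at 335, 712, 554 and 192 CPM in E6.5 Exe control and at 185, 352, 230 and 95.9 CPM in E6.5 Epi control, where the groups overlap. At E7.5 control, it was at 377, 348, 327 and 194 CPM in Exe and at 69.2, 188 and 45.0 CPM in Epi, just without overlap. In the model of all dissected libraries, its tissue difference passed in *Dnmt3a/3b*-DKO at E6.5 alone, with 675, 971, 664 and 593 CPM in Exe, 325, 214, 168 and 10.6 CPM in Epi and a log2 fold change of 1.93 (adjusted p = 0.018). That call rests on the low Epi replicate 4, at 2 counts, without which the adjusted p was 0.0836, and was lost with only both groups in the model (adjusted p = 0.0524). The same library was the lowest of its group for miR-192-5p, at 143 CPM against 1179 to 1498, and for the extraembryonic ectoderm list, at 770 CPM against 5749 to 17399, and the part of that list in the result was not tested. In the other 7 tissue comparisons, miR-194-5p had log2 fold changes of 0.80 to 1.47, all towards Exe, with adjusted p of 0.059 to 0.35. In E7.5 control it passed without Epi replicate 2 (2.22, adjusted p = 0.0389), in E6.5 *Dnmt*-null without Epi replicate 2 (1.98, adjusted p = 0.0366), and in E6.5 *Dnmt1*-KO without Exe replicate 3, its lowest library at 147 CPM (1.64, adjusted p = 0.0455). With only both groups in the model, it passed at E7.5 in control (1.53, adjusted p = 0.0338), *Dnmt1*-KO (1.22, adjusted p = 0.0259) and *Dnmt3a/3b*-DKO (1.11, adjusted p = 0.00368).

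miR-375-3p had a stage-bound pattern in control embryos, with a higher mean in Exe than in Epi at E6.5 and a lower mean at E7.5. In E6.5 Epi control, it was at 45.4, 14.2, 15.6 and 21.8 CPM, and in E7.5 Epi control at 2676, 3260 and 3577 CPM, a ratio of the means of 131. In E6.5 Exe control, it was at 0, 345, 158 and 217 CPM, and in E7.5 Exe control at 195, 328, 902 and 230 CPM. So the Epi controls held less miR-375-3p than 3 of the 4 Exe controls at E6.5 and more than every Exe control at E7.5.

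**Figure D2:**
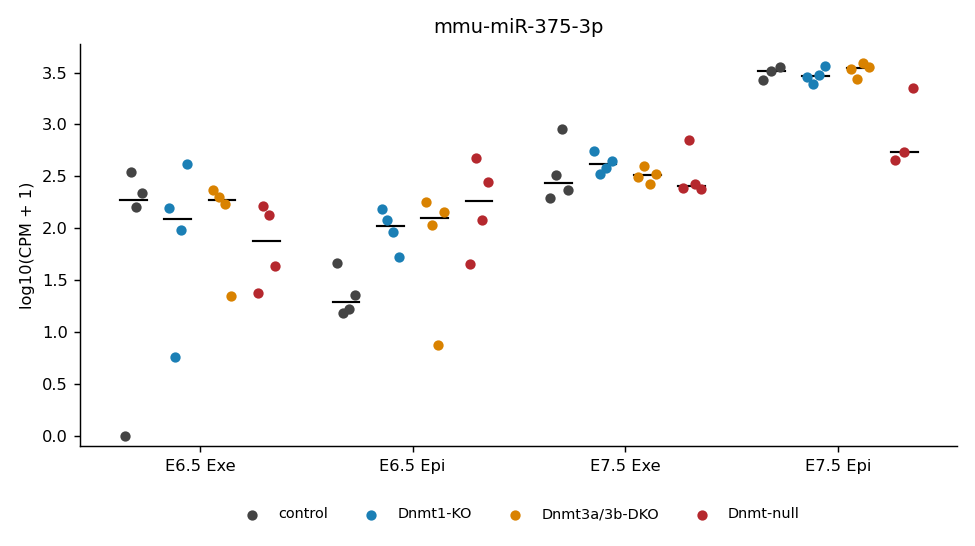
Level of miR-375-3p as log10(CPM + 1) in each Exe and Epi library by stage and genotype, with points for libraries, colours for genotypes and black lines for group medians. The E7.5 Epi libraries of control, *Dnmt1*-KO and *Dnmt3a/3b*-DKO embryos lie at 2434 to 3943 CPM, above every other library, while 2 of the 3 E7.5 Epi *Dnmt*-null libraries lie at 458 and 543 CPM.

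The log2 fold change of miR-375-3p, Exe over Epi, was 2.69 ± 0.77 in control at E6.5 (adjusted p = 0.00726) and -3.35 ± 0.73 in control at E7.5 (adjusted p = 0.000222). The difference between these tissue effects, a test added after seeing the data, was -6.04 ± 1.05 (adjusted p = 0.000236), in a contrast where 6.53% of all miRNAs were called. In the mutants at E6.5, no tissue difference of miR-375-3p passed, with 0.37 in *Dnmt1*-KO (adjusted p = 0.749), 0.33 in *Dnmt3a/3b*-DKO (adjusted p = 0.799) and -1.44 in *Dnmt*-null (adjusted p = 0.19). At E7.5, it was lower in Exe, with -2.67 in *Dnmt1*-KO (adjusted p = 0.0017) and -3.62 in *Dnmt3a/3b*-DKO (adjusted p = 6.13e-05), and the *Dnmt*-null value of -1.75 did not pass (adjusted p = 0.0772). Without Exe replicate 2, which was at 700 CPM against 235 to 269 CPM in the rest of its group, the *Dnmt*-null value was -2.22 (adjusted p = 0.0435). It also passed with no filter on low counts (-1.76, adjusted p = 0.00603) and without the libraries that stood apart (-1.76, adjusted p = 0.0484). Without E6.5 Exe *Dnmt1*-KO replicate 4, the *Dnmt1*-KO value at E6.5 turned to -0.50 and did not pass (adjusted p = 0.655). The epiblast list, higher in Epi at both stages, was at 202279 to 212606 CPM in E7.5 Epi control and at 33368 to 45944 CPM in E7.5 Exe control, where replicate 3 had the lowest epiblast list of its group and the highest miR-375-3p.

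**Figure D3:**
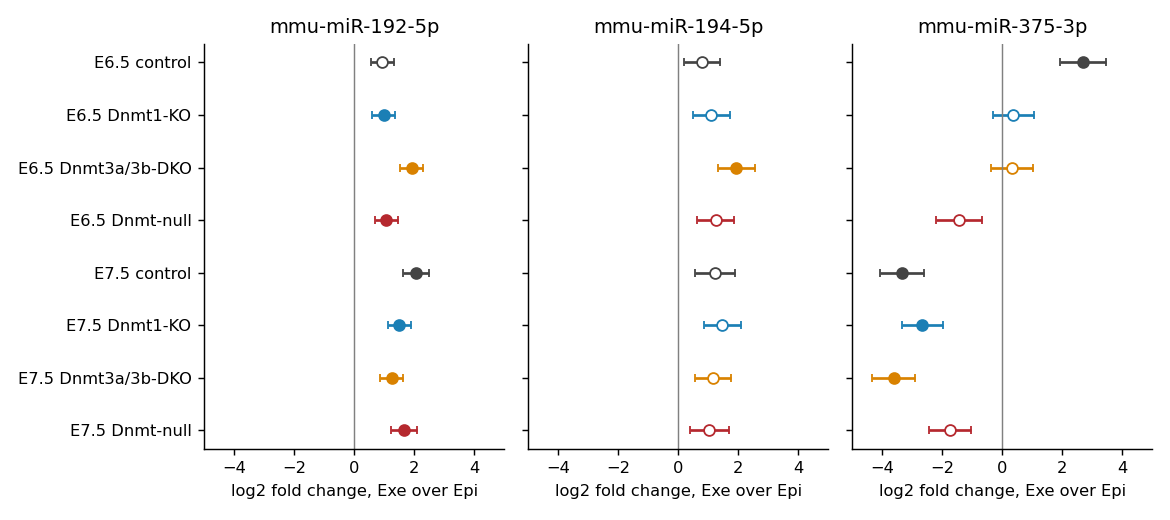
Log2 fold change of Exe over Epi for miR-192-5p, miR-194-5p and miR-375-3p in each genotype and stage, with bars for the standard error and filled points for an adjusted p under 0.05. miR-192-5p and miR-194-5p lie right of 0 throughout, and miR-375-3p moves from 2.69 in E6.5 control to -3.35 in E7.5 control.

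Over the members, 5 of 16 member tests at E6.5 passed, all higher in Exe, and at E7.5 4 of 16 passed as higher and 3 as lower in Exe. Among all 658 miRNAs tested, the share called at E6.5 was 22.8% in control, 26.9% in *Dnmt1*-KO, 21.4% in *Dnmt3a/3b*-DKO and 17.9% in *Dnmt*-null, and at E7.5 it was 26.4%, 29.0%, 21.7% and 16.3% in the same order. The member counts were above these shares at both stages, less so at E6.5, which was not tested.

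miR-122-5p was sparse. In E6.5 Exe control it had 0, 7, 0 and 4 counts, and in E6.5 Epi control 0, 0, 5 and 5 counts. In E7.5 Exe control it had 2, 53, 47 and 0 counts (3.34, 61.9, 22.7 and 0 CPM), and in E7.5 Epi control 41, 85 and 17 counts (17.6, 45.2 and 10.5 CPM). The 4 libraries of E7.5 Exe control thus ran from 0 to 53 counts, and no tissue comparison of miR-122-5p passed. In all 8 libraries of E7.5 *Dnmt1*-KO, 4 of Exe and 4 of Epi, it was at 0 counts.

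Between the stages, miR-375-3p rose in Epi. The log2 fold change of E7.5 over E6.5 was 7.17 ± 0.88 in control (adjusted p = 6.14e-09), 4.68 ± 0.76 in *Dnmt1*-KO (adjusted p = 4.64e-06) and 5.05 ± 0.78 in *Dnmt3a/3b*-DKO (adjusted p = 3.2e-06). In *Dnmt*-null Epi, it was at 44.2, 470, 120 and 276 CPM at E6.5 and at 458, 543 and 2270 CPM at E7.5, a ratio of the means of 4.79, and the log2 fold change of 2.40 ± 0.73 did not pass (adjusted p = 0.0895). With no filter on low counts it was 2.51 and passed (adjusted p = 0.000368). Without the libraries that stood apart, among them the shallowest, it was 2.10 and did not pass (adjusted p = 0.227). The stage effect in *Dnmt*-null Epi differed from that in control Epi by -4.78 ± 1.1 (adjusted p = 0.00209; test added after seeing the data), where 10.6% of all miRNAs were called. In Exe, the same difference did not pass (adjusted p = 0.887, with 0.608% of all miRNAs called). The stage calls of miR-375-3p in Epi, its tissue calls in control and both differences between effects were kept on leaving out each library. In control Epi, the mesenchyme list was at 82.8 to 123 CPM at E6.5 and at 277 to 413 CPM at E7.5. It was at 118 to 143 and 135 to 405 CPM in *Dnmt1*-KO, and at 69.1 to 152 and 338 to 646 CPM in *Dnmt3a/3b*-DKO. In *Dnmt*-null Epi, it was at 106 to 995 and 85.7 to 160 CPM. The extraembryonic ectoderm list in control Epi was at 7016 to 31356 CPM at E6.5 and at 2287 to 2980 CPM at E7.5. The part of these lists was not tested. In Exe, the stage effect on miR-375-3p passed in no genotype, but in *Dnmt1*-KO it passed without E6.5 replicate 4, the library with the high blood list (2.53, adjusted p = 0.0221), and in *Dnmt*-null with no filter on low counts (2.17, adjusted p = 0.00266).

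miR-192-5p and miR-194-5p passed in no stage comparison. miR-122-5p was lower at E7.5 than at E6.5 in *Dnmt1*-KO, in Exe from 2, 1, 0 and 10 counts and in Epi from 0, 12, 6 and 12 counts to 0 in every E7.5 library, or at least 7.0-fold lower in Exe (adjusted p = 0.0203) and at least 10.05-fold lower in Epi (adjusted p = 0.0153), taking 3 counts per library as the floor. The Exe call rests on E6.5 replicate 4 (adjusted p without it 0.199), the library with 10 counts and with the high blood and mesenchyme lists, whose part was not tested, and was lost without E7.5 replicate 2 (adjusted p = 0.0502), and the Epi call was lost without E7.5 replicate 1, 3 or 4 (adjusted p = 0.0518, 0.0671 and 0.0548). In all, 1 of 16 member tests between the stages passed in Exe and 4 of 16 in Epi, 3 of them higher at E7.5. The share of all miRNAs called in Exe was 7.60% in control, 15.5% in *Dnmt1*-KO, 5.02% in *Dnmt3a/3b*-DKO and 1.06% in *Dnmt*-null, and in Epi it was 17.5%, 6.69%, 5.02% and 0.912%. In Exe, 3 of 16 had an unadjusted p under 0.05, and DESeq2 called 1.

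Against control embryos of the same tissue and stage, miR-375-3p in *Dnmt*-null Epi was higher at E6.5 and lower at E7.5, and it passed in neither of the other mutants. At E6.5, the Epi libraries were at 151, 120, 91.6 and 51.8 CPM in *Dnmt1*-KO, at 179, 107, 6.45 and 143 CPM in *Dnmt3a/3b*-DKO and at 44.2, 470, 120 and 276 CPM in *Dnmt*-null, against 14.2 to 45.4 CPM in control. All but 2 of these 12 mutant libraries were above every control. The log2 fold change was 2.09 in *Dnmt1*-KO (adjusted p = 0.256), 2.16 in *Dnmt3a/3b*-DKO (adjusted p = 0.207) and 3.15 ± 0.86 in *Dnmt*-null, which passed (adjusted p = 0.0167). That call was lost without control replicate 2, 3 or 4 or without *Dnmt*-null replicate 2 (adjusted p = 0.0536, 0.0676, 0.0582 and 0.0803), and was kept without the shallowest library (3.50, adjusted p = 0.0052). The epiblast list was at 48473 to 100114 CPM in E6.5 Epi *Dnmt*-null and at 130389 to 200354 CPM in control. The blood list was at 257 to 300.4 CPM in control, at 411 to 848 CPM in *Dnmt1*-KO, at 451 to 1039 CPM in *Dnmt3a/3b*-DKO and, in *Dnmt*-null, at 1108 to 1494 CPM in 3 libraries and at 0 in the shallowest. The part of either list in the result was not tested.

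At E7.5, miR-375-3p in Epi was at 2874, 2434, 3029 and 3626 CPM in *Dnmt1*-KO and at 3448, 2741, 3943 and 3601 CPM in *Dnmt3a/3b*-DKO, which overlap the control range of 2676 to 3577 CPM. The *Dnmt*-null libraries, at 458, 543 and 2270 CPM, were all below it. The log2 fold change was -0.27 in *Dnmt1*-KO (adjusted p = 0.70), 0.03 in *Dnmt3a/3b*-DKO (adjusted p = 0.99) and -1.74 ± 0.43 in *Dnmt*-null (adjusted p = 0.00518), a call kept on leaving out each library. The epiblast list ran in the same order in the *Dnmt*-null libraries, at 105333, 118312 and 164935 CPM against 202279 to 212606 CPM in control, and the blood list was at 828 to 1110 CPM against 64.1 to 122 CPM. The mesenchyme list was at 85.7 to 160 CPM against 277 to 413 CPM, and the endothelium list at 156 to 232 CPM against 267 to 596 CPM. The part of these lists in the fall of miR-375-3p was not tested.

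miR-192-5p in E7.5 Epi was at 697, 680 and 360 CPM in control, at 1229, 1120, 1169 and 933 CPM in *Dnmt1*-KO, at 1003, 1835, 1631 and 1502 CPM in *Dnmt3a/3b*-DKO and at 1576, 2104 and 650 CPM in *Dnmt*-null. All mutant libraries but *Dnmt*-null replicate 3 were above the controls. It rose by 1.28 ± 0.31 in *Dnmt3a/3b*-DKO (adjusted p = 0.0129) and by 1.07 ± 0.33 in *Dnmt*-null (adjusted p = 0.0183), and the value of 0.76 in *Dnmt1*-KO did not pass (adjusted p = 0.11). Without control replicate 3, the library at 360 CPM, both calls were lost (adjusted p = 0.0927 and 0.0842), and the *Dnmt*-null call was also lost without *Dnmt*-null replicate 2 (adjusted p = 0.118). *Dnmt1*-KO passed as well by DESeq2 (0.84, adjusted p = 0.0339), with no filter on low counts (0.88, adjusted p = 0.00139) and with only both groups in the model (0.87, adjusted p = 0.0475).

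The extraembryonic ectoderm list moved with miR-192-5p in these libraries. It was at 2287 to 2980 CPM in E7.5 Epi control, at 3442 to 4106 CPM in *Dnmt1*-KO, at 3188 to 6750 CPM in *Dnmt3a/3b*-DKO and at 5012 to 10016 CPM in *Dnmt*-null, with 50251 to 60926 CPM in E7.5 Exe control. The blood list moved too, at 64.1 to 122 CPM in control and at 344 to 1110 CPM over the 3 mutants. The part of either list in the rise of miR-192-5p was not tested.

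miR-122-5p in E7.5 Epi fell from 41, 85 and 17 counts in control to 0 in each *Dnmt1*-KO library, at least 8.31-fold lower (adjusted p = 0.0324), a call lost without control replicate 1 or 2 or *Dnmt1*-KO replicate 2, 3 or 4 (adjusted p = 0.055, 0.097, 0.0539, 0.0529 and 0.0643) and with replicate number as a block (adjusted p = 0.0579). In E7.5 Exe, where *Dnmt1*-KO was also at 0 in every library and at least 6.64-fold below the control mean, it did not pass (adjusted p = 0.0989, and 0.0317 by DESeq2). That mean rests on control libraries at 3.34, 61.9, 22.7 and 0 CPM. In *Dnmt3a/3b*-DKO Epi it had 9, 6, 1 and 0 counts and in *Dnmt*-null Epi 8, 0 and 0 counts, and neither passed. miR-194-5p passed against control in no genotype, tissue or stage.

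In E6.5 Exe, 0 of 9 member tests of mutants against control passed with edgeR, 0 had an unadjusted p under 0.05 and DESeq2 called 0, where the share of all miRNAs called was 0% in *Dnmt1*-KO, 0.532% in *Dnmt3a/3b*-DKO and 0.532% in *Dnmt*-null. In E6.5 Epi, 1 of 9 passed, where the share of all was 0.733%, 3.42% and 13.0% in the same order. In E7.5 Exe, 0 of 12 passed with edgeR, 1 had an unadjusted p under 0.05 and DESeq2 called 1, where the share of all was 5.03%, 3.02% and 9.88%. There, *Dnmt*-null was at 6461, 6709, 5336 and 1400 CPM of miR-192-5p, against 2651 to 3970 CPM in control (0.63, adjusted p = 0.239). It was at 755, 579, 498 and 58.3 CPM of miR-194-5p, against 194 to 377 CPM (0.55, adjusted p = 0.587). Replicate 4, the lowest for both, also had the lowest extraembryonic ectoderm list of its group, at 36927 CPM. In E7.5 Epi, 4 of 12 passed, 2 higher and 2 lower, where the share of all was 16.3%, 7.67% and 33.7%. miR-122-5p was too low to be tested at E6.5, where this leaves 3 members.

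miR-215-5p, which shares the seed of miR-192-5p, was at 0 counts in all 3 libraries of E7.5 Epi control. It had 0, 10, 39 and 21 counts in *Dnmt1*-KO, 21, 13, 44 and 47 counts in *Dnmt3a/3b*-DKO and 3, 30 and 6 counts in *Dnmt*-null. It was thus at least 9.80-fold, 15.2-fold and 19.8-fold higher in these mutants by the group means, with 3 counts per library as the floor (adjusted p = 0.00944, 0.00928 and 0.00284). The *Dnmt*-null mean leans on replicate 2, at 61.5 CPM against 11.0 and 21.4 CPM. The controls held 584 to 1620 counts of miR-192-5p in the same libraries with none given to miR-215-5p, so reads of miR-192-5p were not counted as miR-215-5p there. In E7.5 control, miR-215-5p was also higher in Exe, at 14, 15, 0 and 6 counts, than in Epi (adjusted p = 0.0125).

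The opposite strands of the members were low in the dissected tissues. mmu-miR-194-2-3p, from *Mir194-2*, was the one with enough counts to be tested there, with 0 to 35 counts in a library, and had adjusted p of 0.0721 to 0.977 in its 8 tissue comparisons. mmu-miR-192-3p reached 15 counts at most and mmu-miR-122-3p 2 counts at most in any library. Of a list of 22 other miRNAs linked to endoderm or to epithelia in general, 21 were in the table and 13 could be tested in the dissected tissues. Of 52 tests of Exe against Epi at E6.5, 2 passed as higher in Exe and 3 as lower, and of 52 at E7.5, 4 as higher and 3 as lower. The share of all miRNAs called in these comparisons was 17.9% to 26.9% at E6.5 and 16.3% to 29.0% at E7.5. mmu-miR-31-5p was lower in Exe in 5 of 8 comparisons, with a mean of 68.1 ± 22.7 CPM (SD, n = 4) in E6.5 Epi control and 0 counts in each E6.5 Exe control library. mmu-miR-148a-3p, a miRNA abundant in liver and pancreas, was higher in Exe in 3 of 8 comparisons, by 0.63 to 0.78 on the log2 scale, all of them in mutants. The median log2 fold change of the list, Exe over Epi, was -0.46 in E6.5 control, against -0.43 over all miRNAs. In the E6.5 mutants it was 0.08 against -0.25 in *Dnmt1*-KO, 0.35 against 0.05 in *Dnmt3a/3b*-DKO and 0.28 against 0 in *Dnmt*-null. In E7.5 control it was 0.16 against -0.28. In the E7.5 mutants it was 0.27 against 0.03, 0.11 against -0.05 and -0.39 against -0.01, in the same order. These differences were not tested. Against control, the list had no calls at all in Exe (0 of 24 tests at E6.5, 0 of 33 at E7.5), while Epi had 1 higher and 1 lower of 27 at E6.5 and, at the later stage, 3 higher and 4 lower of 33. The shares of all miRNAs called are those given with the member tests against control. The 3 higher calls in E7.5 Epi were those of miR-215-5p, and the 4 lower calls were miR-148a-3p in *Dnmt*-null (-0.68), miR-200b-3p in *Dnmt1*-KO (-0.47) and miR-200c-3p in *Dnmt1*-KO (-0.95) and in *Dnmt*-null (-0.41).

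Ordered by mean level over the 16 dissected groups, all 8 Exe groups stood above all 8 Epi groups for miR-192-5p and for miR-194-5p. Neighbours in the order overlapped in their library ranges in 15 of 15 pairs for miR-192-5p, for miR-194-5p and for miR-122-5p. For miR-375-3p, 14 of 15 pairs overlapped, and the exception was the step from E7.5 Epi *Dnmt1*-KO, at 2434 to 3626 CPM, to E7.5 Epi *Dnmt*-null, at 458 to 2270 CPM. Levels of the neighbouring genes' products kept a loose ratio: miR-192-5p over miR-194-5p had group medians of 5.25 to 7 at E6.5 and 5.81 to 12.2 at E7.5.

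Likeness was taken as Pearson's r of log2 CPM over the means of the 16 dissected groups, among 657 other miRNAs, as a description of groups that share libraries, depth and tissue makeup. miR-192-5p was most like miR-669c-5p (r = 0.92), miR-466g (0.92) and miR-466d-3p (0.91), and miR-194-5p most like miR-669d-5p (0.95), miR-669b-5p (0.93) and miR-467e-5p (0.93). These all carry the names of the *Sfmbt2* intron families, and miR-669c-5p is itself on the extraembryonic ectoderm list. Between miR-192-5p and miR-194-5p, r was 0.83, at rank 43 for miR-192-5p. miR-375-3p was most like miR-346-5p (0.89), miR-3099-3p (0.87) and miR-34c-3p (0.83). miR-122-5p, beside the identical miR-122b-3p, was most like miR-203b-5p and miR-203-3p (0.57 each).

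In SC embryos at E6.5, miR-375-3p was at 47.3, 74.7 and 19.4 CPM in WT, at 383, 262 and 285 CPM in *Dnmt*-null, at 38.1, 36.3 and 39.6 CPM in DKO and at 148, 254 and 154 CPM in DKO;*Dnmt*-null. Both groups without *Dnmt* genes lay above both groups with them. The log2 fold change was 2.48 ± 0.42 for *Dnmt*-null over WT (adjusted p = 0.0155) and 2.09 ± 0.24 for DKO;*Dnmt*-null over DKO (adjusted p = 8.79e-07), a comparison across tables deposited separately. The first call was lost without WT replicate 1, *Dnmt*-null replicate 1 or *Dnmt*-null replicate 3 (adjusted p = 0.0651, 0.0686 and 0.0526), with only both groups in the model (adjusted p = 0.146) and with replicate number as a block (adjusted p = 0.0582). The epiblast list was at 82565 to 122808 CPM in *Dnmt*-null, against 214514, 195381 and 21252 CPM in WT. The mesenchyme list was at 206 to 312 CPM against 111 to 154 CPM. The extraembryonic ectoderm list was at 16409 to 52074 CPM against 2865 to 16342 CPM. The part of these 3 lists was not tested.

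miR-192-5p was at 1632, 1382 and 1717 CPM in DKO and 2949, 1965 and 2721 CPM in DKO;*Dnmt*-null, without overlap, a log2 fold change of 0.60 ± 0.12 (adjusted p = 0.000588). miR-194-5p was at 183, 162 and 188 CPM in DKO and 340, 277 and 233 CPM in DKO;*Dnmt*-null (0.61 ± 0.15, adjusted p = 0.00463), and was lost without DKO replicate 2 or DKO;*Dnmt*-null replicate 1 (adjusted p = 0.0501 and 0.101). miR-122-5p was at 14.9, 11.1 and 9.07 CPM in DKO and 67.3, 45.2 and 41.7 CPM in DKO;*Dnmt*-null (2.13 ± 0.38, adjusted p = 0.000215). All 4 members were therefore higher in DKO;*Dnmt*-null than in DKO, where 35.3% of all miRNAs were called. The groups came from tables deposited separately, with 2150520 to 2425038 counts in DKO and 177142 to 1366522 in DKO;*Dnmt*-null. Loss of the *Dnmt* genes cannot be told apart from table or depth here. The extraembryonic ectoderm list was at 18563 to 20916 CPM in DKO and 22925 to 28885 CPM in DKO;*Dnmt*-null, the blood list at 202 to 268 CPM and 763 to 943 CPM, and the epiblast list at 177971 to 196784 CPM and 130119 to 147052 CPM, all without overlap. The part of these lists was not tested.

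On the WT background, miR-192-5p was at 1600, 1681 and 2017 CPM in WT and 2726, 3641 and 3266 CPM in *Dnmt*-null, without overlap, and did not pass. miR-194-5p, at 151, 226 and 128 CPM against 273, 702 and 356 CPM, had 1.09 and did not pass (adjusted p = 0.195). There, 1 of 4 members was called and 1.52% of all miRNAs. DKO against WT gave 0 of 4 with edgeR, 1 with an unadjusted p under 0.05, and 1 by DESeq2, miR-122-5p (-2.99, adjusted p = 0.0138), which also passed with no filter on low counts (-2.47, adjusted p = 0.0158), with 0.217% of all miRNAs called by edgeR. In WT, replicate 3 was the highest for miR-122-5p, at 151 CPM against 29.6 and 21.1 CPM, and was the library with a low epiblast list. Without it, *Dnmt*-null over WT gave 2.11 ± 0.34 for miR-375-3p (adjusted p = 0.01), 0.74 for miR-192-5p, which then passed (adjusted p = 0.0485), and 1.97 for miR-122-5p (adjusted p = 0.0551), DKO over WT gave -1.08 for miR-122-5p (adjusted p = 0.434), and 6 of the 15 SC member tests passed in place of 5.

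At E7.5, the SC controls from DKO-AG-haESCs were at 742, 1427 and 127 CPM of miR-375-3p, and Mir-6KO;*Dnmt*-null embryos at 405, 1202 and 1239 CPM, which overlap. miR-192-5p was at 1952, 2035 and 1344 CPM and at 4078, 2521 and 2868 CPM, without overlap, and did not pass (0.58, adjusted p = 0.272). Of the 3 members tested, 0 passed with edgeR, 1 had an unadjusted p under 0.05 and DESeq2 called 0, with 3.08% of all miRNAs called. miR-122-5p had 6, 0 and 1 counts in the controls and 34, 0 and 0 counts in Mir-6KO;*Dnmt*-null, too few to test.

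**Figure D4:**
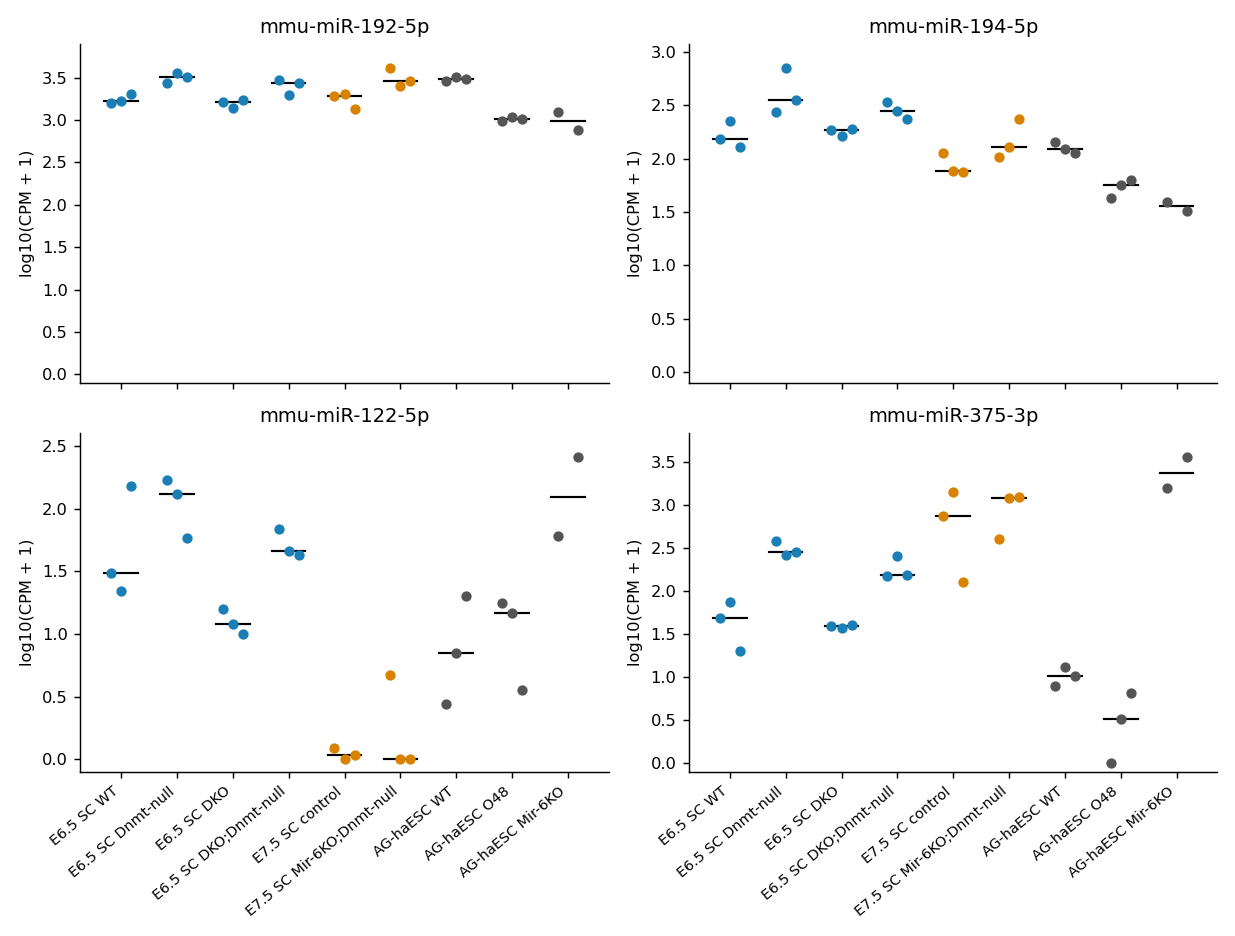
Level of the 4 members as log10(CPM + 1) in SC embryos at E6.5 (blue) and E7.5 (orange) and in AG-haESCs (grey), with points for libraries and black lines for group medians. miR-375-3p lies higher in both E6.5 groups without *Dnmt* genes, at 148 to 383 CPM, than in WT and DKO, and at 1595 and 3606 CPM in the libraries labelled Mir-6KO.

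In AG-haESCs, cells with no embryonic tissue around them, miR-192-5p was at 2905, 3209 and 3097 CPM in WT, within the range of E7.5 Exe control, at 988.5, 1086 and 1038 CPM in O48, and at 1234 and 758 CPM in the libraries labelled Mir-6KO. miR-194-5p was at 141, 122 and 112 CPM in WT and 41.5, 55.2 and 62.2 CPM in O48. Both were lower in O48 than in WT, with a log2 fold change of -1.54 ± 0.16 for miR-192-5p (adjusted p = 0.000355) and -1.20 ± 0.28 for miR-194-5p (adjusted p = 0.027). RLE scaling moved the median of all miRNAs by 0.37 in this comparison and left miR-194-5p at -0.82 (adjusted p = 0.121), and its call was also lost with no filter on low counts (adjusted p = 0.159), with replicate number as a block (adjusted p = 0.127) and without O48 replicate 1 or 3 or any WT replicate (adjusted p = 0.0544 to 0.143). The ratio of miR-192-5p to miR-194-5p had medians of 19.7 to 28.2 in AG-haESCs. miR-375-3p was at 6.85, 12 and 9.18 CPM in WT and 0, 2.29 and 5.58 CPM in O48, far below the E7.5 Epi libraries, and miR-122-5p at 1.77, 5.98 and 19.1 CPM in WT and 16.6, 13.6 and 2.57 CPM in O48. Of the 4 members, 2 were called in O48 against WT, with 13.7% of all miRNAs called. The extraembryonic ectoderm list was at 2846 to 3725 CPM in O48 and 5108 to 5304 CPM in WT. The epiblast list was at 924 to 1670 CPM and 3659 to 3914 CPM. Their part was not tested.

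The libraries labelled Mir-6KO held 1595 and 3606 CPM of miR-375-3p and 59.6 and 257 CPM of miR-122-5p, above every other AG-haESC library. Against O48, the log2 fold change was 9.53 ± 1.14 for miR-375-3p (adjusted p = 0.000266), 3.38 for miR-122-5p (adjusted p = 0.0411), -0.58 for miR-192-5p (adjusted p = 0.0293) and -1.11 for miR-194-5p (adjusted p = 0.0226), so that all 4 members were called, with 52.1% of all miRNAs. The median over all miRNAs was -0.82, below the value of miR-192-5p. In CPM, miR-192-5p overlapped, at 1234 and 758 CPM against 988.5 to 1086 CPM in O48. The miR-122-5p call was lost without replicate 2 of Mir-6KO or without any O48 replicate (adjusted p = 0.0708 to 0.234), and the miR-192-5p and miR-194-5p calls without O48 replicate 3 (adjusted p = 0.0601 and 0.0607) with RLE scaling (adjusted p = 0.145 and 0.063) and with only both groups in the model (adjusted p = 0.26 and 0.175). With replicate number as a block, these 3 calls were lost (adjusted p = 0.0891 to 0.112), and DESeq2 did not call miR-192-5p (adjusted p = 0.152). These libraries are the ones whose epiblast list, at 239331 and 268002 CPM, was above that of every Epi library (up to 212606 CPM) and SC library (up to 220309 CPM), so the directions given here are those of the libraries labelled Mir-6KO.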

How the data were processed

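Small RNA of 91 mouse libraries was used, of which 88 were assigned to 25 groups from their titles and 3, titled as another AG-haESC line, entered no comparison. The authors used fastp 0.20.1 to keep reads of 15 to 40 bases, mapped these to GRCm38 (Bowtie 1.2.1.1) and then to the mature sequences of miRBase, with a tolerance of 2 bases at the 3′ end. Each deposited value is a read count of 1 mature miRNA in 1 library, not normalized by the authors. DKO;*Dnmt*-null SC embryos came in a table of their own with 895 miRNAs. An earlier copy of the main table was not used. Whether molecular identifiers were used was not given in the sources used here.

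CPM was computed on the deposited totals. Counts were tested in edgeR 4.0.16 (R 4.3.3; glmQLFit and glmQLFTest), after TMM scaling and a filter by group (filterByExpr, minimum 10 counts), with Benjamini-Hochberg adjustment over all miRNAs tested. A call is an adjusted p under 0.05. The 62 Exe and Epi libraries were fitted in 1 model of 16 groups for tissue and stage, each tissue and stage separately for genotype, and SC embryos and AG-haESCs by stage and table. Log2 fold changes and log2 CPM (prior count 2) were computed here, and standard errors come from the fold change and the F statistic. A fold against a group at 0 is a bound from 3 counts per library, and covers counting error only. Totals of 45242 to 26970637 counts set the precision. The procedure was tested on simulated data.

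The members and lists were chosen with earlier results of these data known. All 4 members are covered in every comparison, by name or within the counts of member tests. Also named are their seed relative, their other strands, up to 4 list members that passed most often between tissues, and the 3 miRNAs most like each. Single list members named in the genotype comparisons were picked with their values in view. The alternatives were RLE scaling, no filter, a mean of at least 10 counts, DESeq2 1.42.0, models of only the groups compared, a replicate block, the study's thresholds (absolute log2 fold change above 0.5 and unadjusted p under 0.05), TMM factors in CPM, a prior count of 0.5, and leaving out each library. The tests of differences between effects, and leaving out 3 embryo libraries that stood apart, were added after seeing the data. Sequences and positions are from RefSeq on GRCm38.p6, the build the authors aligned to, where 1275 of the 1504 miRNA names had an entry.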

Additional observations from a re-analysis of the deposited data

Results flagged for a closer look

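In 54 sets, each of 1 member in 1 of 14 groups of 4 libraries, 3 values stood out from the rest of their set by the 95% critical value of Dixon's test, which chance alone gives in about 1 in 20 sets. The sets share libraries. Replicate 4 of E6.5 Exe *Dnmt1*-KO had 84.7 CPM of miR-122-5p (10 counts), against 0 to 5.52 CPM in the others, and is the library with the high blood and mesenchyme lists. Replicate 4 of E7.5 Exe *Dnmt3a/3b*-DKO had 7.93 CPM of miR-122-5p (19 counts), against 0 to 0.755 CPM. Replicate 2 of E7.5 Exe *Dnmt*-null had 700.4 CPM of miR-375-3p, against 235 to 269 CPM.

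The effect of tissue on miR-375-3p in control embryos differed between the stages by -6.04 on the log2 scale (adjusted p = 0.000236), and the effect of stage in Epi differed between *Dnmt*-null and control embryos by -4.78 (adjusted p = 0.00209).

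The 3 AG-haESC libraries that the labels put in no group had a median of 2490 CPM of miR-192-5p (2463 to 2567), 106 CPM of miR-194-5p (104 to 114) and 3.88 CPM of miR-122-5p (1.01 to 6.02), with more than 3 counts in every library.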

How the results depend on the processing

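The members passed in 12 of 32 tests between tissues, 5 of 32 between stages, 5 of 42 of mutants against control, 5 of 15 in SC embryos and 6 of 8 in AG-haESCs. With the study's thresholds, 8 passed between stages, 9 against control and 8 in SC embryos. With a mean of at least 10 counts, 3 of 24 passed between stages. In AG-haESCs, 3 passed with RLE scaling. Leaving out each library gave 11 to 13 calls between tissues, 4 to 5 between stages, 3 to 6 against control, 4 to 6 in SC embryos and 2 to 6 in AG-haESCs. Without the 3 embryo libraries that stood apart, 12, 5, 5 and 6 passed in the first 4 sets. The log2 fold change of miR-375-3p in E7.5 Epi *Dnmt3a/3b*-DKO, 0.03 and not called, turned to -0.035 with RLE scaling and with DESeq2, and ran from -0.069 to 0.14 on leaving out each library. That of Exe over Epi in E6.5 *Dnmt1*-KO, 0.37 and not called, ran from -0.50, without Exe replicate 4, to 0.86, and was -0.48 without the libraries that stood apart, of which that is 1. The cause of these changes was not tested. RLE scaling moved the median of all miRNAs by 0.43 in E6.5 control between tissues, by 0.37 in O48 and by 0.22 in Mir-6KO, and by -0.31 and -0.34 in the differences of -6.04 and -4.78. TMM factors moved the level of miR-375-3p in E7.5 Epi control from 3171 to 4060 CPM.

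Libraries share replicate numbers across groups, and the main models took no account of the numbers. Deviations from the group means correlated above 0.1 in 8 of 30 same-numbered pairs between tissues, against 2 of 84 differently numbered pairs. Between stages it was 3 of 30 against 4 of 90, and between genotypes 8 of 45 against 12 of 126. Whether the numbers pair Exe and Epi libraries of the same embryos cannot be told from this. With a replicate block, 12, 5, 4, 4 and 2 tests passed in the 5 sets, and miR-375-3p in E7.5 Epi *Dnmt3a/3b*-DKO was at -0.028.

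Depth limits the E6.5 results most, where 3 counts stood for up to 66.3 CPM, and miR-122-5p throughout. The 2 libraries of Mir-6KO leave 1 when either is left out, which is then assumed to vary like the other groups.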
